A study of Mus musculus with 4 samples.

Results

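EN12 was one of 13 subtypes into which the deposited annotation divided the excitatory neurons of the mouse superior colliculus. Its members were the nuclei carrying the subtype label EN12, 158 of 4093 excitatory nuclei and of 9724 nuclei in all. Single-nucleus RNA sequencing had been carried out on dissected superior colliculus of C57BL/6J mice at embryonic day 19 (E19) and postnatal days 4, 8 and 21 (P4, P8, P21), and the labels name no mutation, transgene or treatment in any group. Each stage was 1 library made from tissue pooled over several animals, and the sources used here do not say how many animals or of which sex. A protocol text abbreviates the embryonic day differently from the titles, and E19 of the titles and stage labels was used. With 1 library per stage the stages could not be tested against each other, and subtypes were not tested because they were defined on the same nuclei: every interval below covers counting error only, and a difference between stages is one between single libraries, without replicates.

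The superior colliculus is a layered midbrain structure whose upper layers receive input from the retina and whose deeper layers receive input from other senses and from cortex and send output to motor centres. Its excitatory neurons load glutamate into vesicles mainly with the transporter encoded by Slc17a6, and they differ from each other in depth, shape and target. Subtypes of such neurons are usually set apart by combinations of transcription factors, adhesion molecules and ion channels, the last of which set how a cell sums its inputs and when it fires.

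Of the excitatory nuclei, EN12 made up 22 of 1338 at E19 (1.64%, 95% exact Clopper-Pearson interval 1.03% to 2.48%) and 36 of 1206 at P4 (2.99%, 2.10% to 4.11%). It made up 59 of 867 at P8 (6.81%, 5.22% to 8.69%) and 41 of 682 at P21 (6.01%, 4.35% to 8.07%). The intervals at P8 and P21 lay above those at E19 and P4. The same was true of EN4, EN5, EN6, EN9 and EN13, for instance EN6 with 2.24% at E19 and 11.6% at P8. EN1 and EN2 had 38.4% and 21.4% at E19 and 15.1% and 5.07% at P8, and shares of a whole do not move independently. With 1 library per stage, more EN12 neurons in the tissue and a different sampling of the tissue cannot be told apart. EN12 nuclei held a median of 8803 UMIs (unique molecular identifiers, counted RNA molecules) (E19), 12889 (P4), 15691 (P8) and 27353 (P21), against 8044, 11653, 14058 and 19404 in the other excitatory nuclei. At P21 EN12 had the highest median depth of the 11 subtypes with at least 20 nuclei. The EN12 sums were 193856, 522764, 993344 and 1225002 UMIs, in the order of the stages, so that 1 UMI stood for 5.16 CPM (UMIs of a gene per 1000000 UMIs) at E19 but for 0.816 CPM at P21, and values of the E19 library are the least precise.

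**Figure D1:**
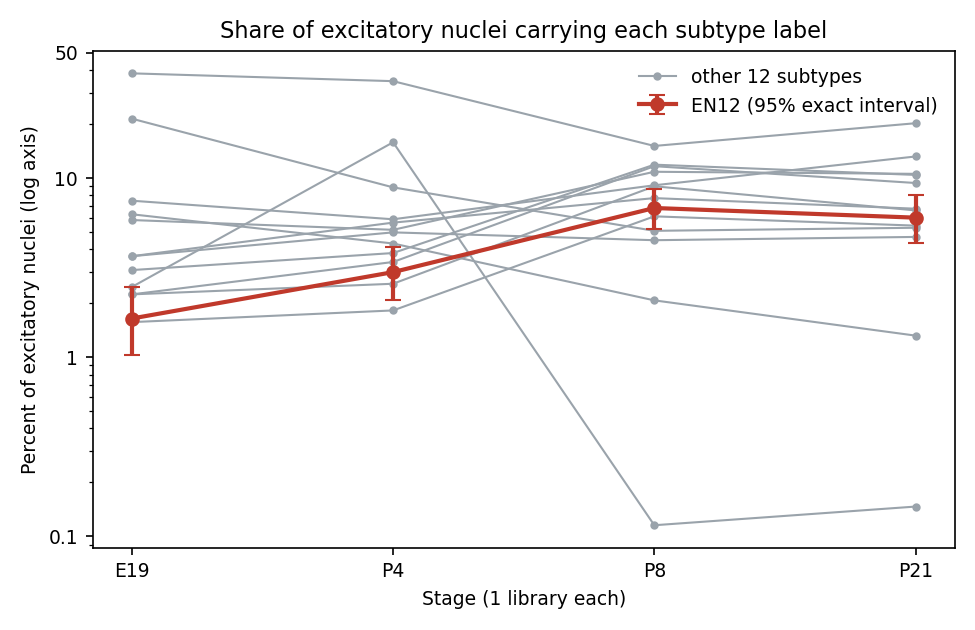
Percent of excitatory nuclei carrying each subtype label (log axis) in the 4 libraries. EN12 is in red with 95% exact intervals, and the other 12 subtypes are grey lines without intervals. EN12 stands at 1.64% at E19 and 2.99% at P4, and at 6.81% at P8 and 6.01% at P21.

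EN12 nuclei carried the defining marker of excitatory neurons and, by most marker lists, little of other classes. Slc17a6 stood at 319.8 CPM (E19), 314 (P4), 206 (P8) and 167 (P21) in EN12, and at 285, 239, 179.7 and 177 CPM in the other excitatory nuclei. Slc17a7 and Slc17a8, the other vesicular glutamate transporters, together reached at most 3.83 CPM in any library. Gad1, an enzyme gene of GABA synthesis, stood at 20.6 CPM (E19), 19.1 (P4), 8.05 (P8) and 8.98 (P21) in EN12, against 23.99, 16.9, 16.2 and 13.00 CPM in the other excitatory nuclei, and Gad2 at 10.3 CPM (E19), 17.2 (P4), 12.1 (P8) and 9.80 (P21), against 24.1, 20.7, 12.1 and 17.5 CPM. In 14 of the 158 EN12 nuclei (8.86%) at least 2 of Gad1, Gad2 and Slc32a1 had a UMI, against 5.67% of other excitatory and 85.7% of inhibitory nuclei. These were 0 of 22 EN12 nuclei at E19, 5 of 36 at P4, 5 of 59 at P8 and 4 of 41 at P21. The other excitatory nuclei had 4.18%, 6.41%, 6.31% and 6.55%. Depth was not evened out here, and the median was 15574 UMIs in EN12 and 11455 in the other excitatory nuclei. The sources used here do not say whether doublets had been removed before deposit, and no doublet caller was run. Dopaminergic and serotonergic genes (Th, Slc6a3, Tph2, Slc6a4, Fev) and Dbh and Slc18a3 were at 0 in EN12 in every library. In the same list of 11 monoamine and cholinergic genes, Slc18a2 had UMIs at P4, P8 and P21, Chat at P21 and Slc5a7 at E19. The whole list, with Ddc, summed to 10.3 CPM (E19), 22.95 (P4), 38.3 (P8) and 26.1 (P21) in EN12. The other excitatory nuclei held 28.6, 58.9, 8.94 and 8.15 CPM. The sum in EN12 was thus lower at E19 and P4 and higher at P8 and P21. Ddc, an enzyme of monoamine synthesis, was present at 5.16 CPM (E19), 17.2 (P4), 34.2 (P8) and 22.9 (P21), against 5.12, 2.30, 1.97 and 2.99 CPM in the other excitatory nuclei. Of the glial lists, the oligodendrocyte markers summed to 92.9 CPM (E19), 84.2 (P4), 82.5 (P8) and 198 (P21) in EN12, and to 58.2, 90.4, 51.3 and 278 CPM in the other excitatory nuclei. The oligodendrocyte lineage itself had 279.9, 1329, 1367 and 22004 CPM. EN12 was thus above the other excitatory nuclei at E19 and P8 and below them at P4 and P21. Of the 6 oligodendrocyte markers 3 were at 0 in EN12 at E19, 2 each at P4 and P8, and none at P21. The astrocyte list summed to 41.6 to 120 CPM in EN12, below the other excitatory nuclei in every library. Oligodendrocyte precursor markers were above them at E19 (46.4 against 17.9 CPM) and P21 (8.98 against 6.43 CPM) and below them at P4 and P8. The epithelial list reached 67.0 CPM at P4, against 77.9 CPM in the other excitatory nuclei and 110.9 CPM in the epithelial class.

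Most EN12 nuclei also fell together by other labels of the same deposited table. How the subtypes were named from these is not stated in the sources used here, so the overlap is a description. Cluster 23 of the deposited clustering held 148 of the 158, and only 2 of its 150 nuclei had another label (both EN2). A further 9 EN12 nuclei lay in cluster 6 and 1 in cluster 7. One set of reference labels called 154 of the 158 ESC1 and 4 ESC2, and a second set gave all 158 the label 27, which 16 nuclei of EN2 and 1 of EN5 also carried. Between libraries 9 cell barcodes were shared, and 1 EN12 nucleus was among them.

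EN12 nuclei stood out from the other excitatory nuclei by high levels of the membrane and matrix genes Tmem132c, Gpc3 and Egflam, of the channel genes Kcnd3 and Cacna1d, and of the transcription factor gene Meis2. They also stood out by low levels of the transcription factor genes Ebf1, Ebf2 and Ebf3. Ebf2 and Ebf3 were also low in some libraries of other subtypes, among them EN2. Of 3222 genes with at least 50 CPM on the higher side in every library, 59 (1.83%) were at least 2-fold higher in EN12 in all 4 libraries and 94 (2.92%) at least 2-fold lower. Ratios are of CPM with 5 CPM added to each side, which understates differences of low genes. Since the nuclei were clustered on their own expression, these values describe the subtype, and nothing is read from their number. Other subtypes are compared singly only in libraries where they held at least 20 nuclei, which leaves out EN7 and EN11 at P8 and P21. The 15 genes taken as highest, of which 14 are described, and the 8 taken as lowest are those whose weakest ratio over the 4 libraries was largest. Just inside the 15 was Atrnl1, with a weakest log2 ratio of 1.97, and just outside was Tmem132b with 1.95.

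The 250 bases upstream of the RefSeq start sites (GRCm38.p6) of 3 of the highest genes, Tmem132c, Egflam and Kcnd3, and of Ebf3 among the lowest are shown because these genes carry the contrast. Capitals mark a match, on either strand, to AGGTCA, the core letters recognised by ROR receptors, or to TGACAG, the core of MEIS sites, and Egflam is shown for 1 of its 2 listed starts.
Tmem132c, chr5:127241576-127241825, plus strand: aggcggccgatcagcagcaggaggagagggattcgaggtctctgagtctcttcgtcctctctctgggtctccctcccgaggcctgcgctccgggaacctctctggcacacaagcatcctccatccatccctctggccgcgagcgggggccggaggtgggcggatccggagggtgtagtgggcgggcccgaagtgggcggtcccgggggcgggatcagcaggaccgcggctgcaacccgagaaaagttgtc
Egflam, chr15:7398396-7398645, minus strand: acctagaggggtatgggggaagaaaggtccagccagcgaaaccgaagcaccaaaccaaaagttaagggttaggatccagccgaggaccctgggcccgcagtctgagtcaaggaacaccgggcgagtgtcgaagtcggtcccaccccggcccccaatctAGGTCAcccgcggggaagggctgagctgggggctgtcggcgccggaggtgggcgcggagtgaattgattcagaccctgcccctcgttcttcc
Kcnd3, chr3:105451640-105451889, plus strand: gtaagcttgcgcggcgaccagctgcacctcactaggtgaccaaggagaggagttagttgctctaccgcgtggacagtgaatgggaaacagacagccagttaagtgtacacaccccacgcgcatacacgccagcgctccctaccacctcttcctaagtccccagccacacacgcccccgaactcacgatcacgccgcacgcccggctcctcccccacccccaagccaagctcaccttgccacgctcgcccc
Ebf3, chr7:137314446-137314695, minus strand: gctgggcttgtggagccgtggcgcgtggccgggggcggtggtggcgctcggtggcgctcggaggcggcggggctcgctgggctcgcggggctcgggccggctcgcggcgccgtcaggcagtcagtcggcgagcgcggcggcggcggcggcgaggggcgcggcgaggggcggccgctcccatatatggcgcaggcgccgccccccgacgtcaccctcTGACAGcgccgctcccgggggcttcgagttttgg
Promoters were at hand for 7 of the 15 high and 6 of the 8 low genes. AGGTCA was found in 1 of the 7 high genes (Egflam) and in none of the 6 low ones, against 15.8% of 27025 genes and 14.02% of 32851 promoters of this length. TGACAG was found in none of the 7 high genes and in 2 of the 6 low ones (Ebf3 and Kcnab1), against 17.95% of genes and 15.9% of promoters. The palindrome of EBF sites, TCCC and GGGA with any 2 bases between, was found in none of the 13, against 0.914% of genes and 0.779% of promoters. No promoter of these 13 genes held more than 1 of the motifs, and a match describes letters only.

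Tmem132c (5:127241808-127565793, plus strand, GRCm38 as all positions here), which encodes a single-pass membrane protein, stood at 1619.8 CPM (E19), 1205 (P4), 1429.5 (P8) and 1163 (P21) in EN12. In the other excitatory nuclei it stood at 69.1, 104, 64.4 and 47.2 CPM. The lowest EN12 library lay above the highest library of each other subtype with at least 20 nuclei, the nearest being EN2 with 377 CPM at P8. A UMI of Tmem132c was found in 99.4% of EN12 nuclei, 24.1% of other excitatory nuclei and 8.18% of nuclei of the oligodendrocyte lineage, which were taken as a class that should lack neuronal genes. Median depth was 15574, 11455 and 5553 UMIs in these 3 sets. With every nucleus thinned to 3000 UMIs, which left out 0, 24 and 18 nuclei, the shares were 93.0%, 12.3% and 4.51%.

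Gpc3 (X:52272426-52613950, minus strand) encodes a glypican, a heparan sulfate proteoglycan of the cell surface, and stood at 242 CPM (E19), 251 (P4), 317 (P8) and 320.0 (P21) in EN12. The other excitatory nuclei held 19.1, 14.3, 23.3 and 19.8 CPM. No other subtype passed 75.6 CPM, the value of EN6 at P21. Egflam (15:7206120-7398395, minus strand) encodes pikachurin, a matrix protein known from the photoreceptor synapse. It stood at 113 CPM (E19), 237 (P4), 244 (P8) and 202 (P21), against 7.76, 12.2, 15.6 and 12.6 CPM in the other excitatory nuclei, and EN6 came next in every library among subtypes with at least 20 nuclei, with 34.7 to 51.2 CPM. EN11 held 69.4 CPM in 9 nuclei at P21. Prex2 (1:10993465-11303681, plus strand), which encodes an exchange factor for the GTPase Rac, stood at 330.1 CPM (E19), 275 (P4), 491 (P8) and 999 (P21). In the other excitatory nuclei its levels were 37.3, 40.98, 90.8 and 95.8 CPM, and the runner-up in each library was EN5 with 157 to 359.7 CPM, so the EN12 value of one library could lie below the EN5 value of another.

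Among the ion channel genes, Kcnd3 (3:105452330-105674002, plus strand), which encodes the A-type potassium channel Kv4.3, stood at 2125 CPM (E19), 2766 (P4), 3648 (P8) and 3239 (P21) in EN12. The other excitatory nuclei held 324, 332, 310.2 and 328 CPM, almost level over the stages. EN12 was highest of all subtypes in every library, and the next values were between 454 CPM (EN13, P4) and 630.0 CPM (EN2, P8). Pex5l (3:32949408-33143247, minus strand), a neuronal relative of the peroxisomal import receptor gene, stood at 1119 CPM (E19), 1364 (P4), 2237 (P8) and 3291 (P21) in EN12 and at 196, 226, 326 and 665 CPM in the others. Pex5l was thus highest in EN12 in each library, and its own highest level was at P21. Cacna1d, which encodes the L-type calcium channel subunit Cav1.3, stood at 1795 CPM (E19), 2169 (P4), 2531 (P8) and 3054 (P21), against 519.7, 536, 653 and 553 CPM, with EN9 next at 979 to 1086 CPM.

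**Figure D2:**
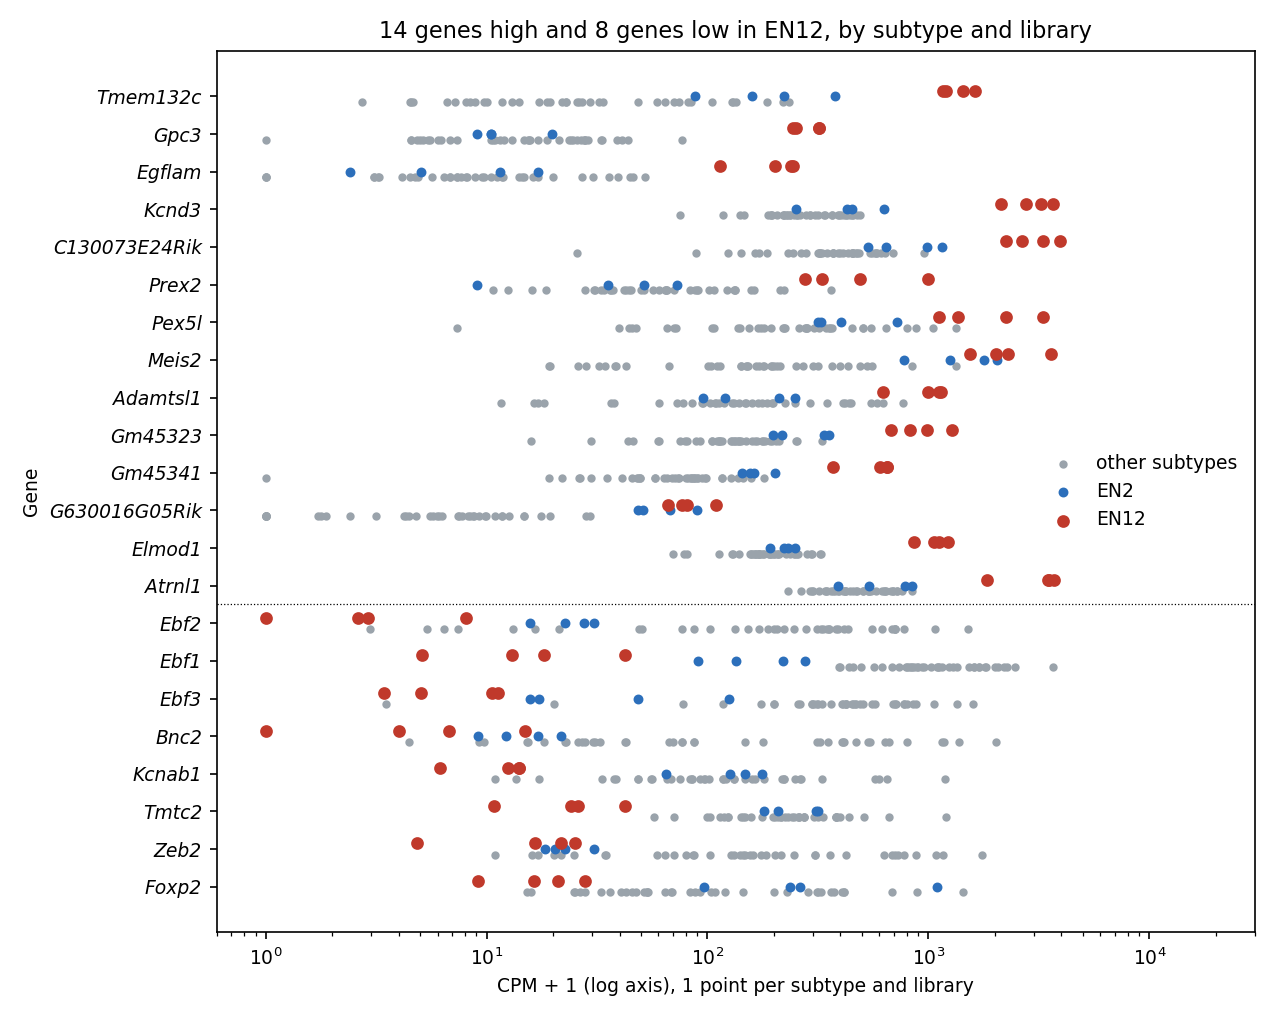
CPM plus 1 (log axis) of 14 of the 15 genes that were highest in EN12 (above the dotted line) and the 8 named as lowest, 1 point for each subtype and library with at least 20 nuclei. EN12 is red, EN2 blue and the other subtypes grey. The red points of Tmem132c, from 1163 to 1620 CPM, lie right of all others, those of Meis2 overlap with EN2, and those of Ebf1, from 4.08 to 41.3 CPM, lie left of all others.

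Meis2 (2:115863064-116065839, minus strand), a homeobox gene with a role in the development of the tectum, stood at 3590.3 CPM (E19), 2282 (P4), 2015 (P8) and 1540.4 (P21) in EN12. In the other excitatory nuclei it stood at 732, 267, 286 and 154 CPM. EN2 came next in every library, with 2040.2, 1247, 1787 and 777 CPM, so the subtypes are close for this gene at P8. The lincRNA gene G630016G05Rik (2:116067225-116085911, plus strand) starts beside Meis2 on the opposite strand. It stood at 108 CPM (E19), 65.04 (P4), 75.5 (P8) and 80.00 (P21) in EN12 and at 66.4, 47.4, 88.3 and 49.98 CPM in EN2, which was the higher at P8. No other subtype had more than 28.4 CPM of it.

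The lincRNA genes C130073E24Rik (8:50743291-50916997), Gm45341 (8:50117745-50517889) and Gm45323 (8:49959483-50013384) lie near each other on the minus strand of chromosome 8. C130073E24Rik stood at 3291 CPM (E19), 3939 (P4), 2663 (P8) and 2242 (P21) in EN12, against 583, 680.0, 413 and 381 CPM in the other excitatory nuclei. Gm45323 stood at 985 CPM (E19), 1282 (P4), 825 (P8) and 679 (P21), and Gm45341 at 650.0 CPM (E19), 647 (P4), 601 (P8) and 371 (P21). For these 3 genes EN12 was highest in each library and EN1 or EN2 came next. Gm45341 overlaps another annotated gene on its own strand, as does Adamtsl1 with Sh3gl2, so the UMIs of such genes may be shared. The other named genes were Adamtsl1 (a secreted ADAMTS-like protein), Elmod1 (a regulator of Arl GTPases) and Atrnl1 (an attractin-like membrane protein), with weakest log2 ratios of 2.25, 2.08 and 1.97 and EN12 highest in every library. Adamtsl1 was also present in EN9, EN10, EN11 and EN13, for instance at 586 CPM in EN13 at P8, and at up to 765 CPM in EN9 at P8. That EN9 value was above the 623 CPM of EN12 at P21.

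The first 6 of these genes in order of their weakest ratio (Tmem132c, Gpc3, Egflam, Kcnd3, C130073E24Rik and Prex2) were found together in single nuclei. A UMI of all 6 was present in 87 of 158 EN12 nuclei, of 5 in 39, of 4 in 27, of 3 in 4 and of 2 in 1. Of the 3935 other excitatory nuclei, 9 had all 6: 2 each of EN1, EN2, EN3 and EN6 and 1 of EN11. The 10 EN12 nuclei outside cluster 23 held Tmem132c at 685 CPM and Kcnd3 at 2272 CPM (110 and 365 UMIs), against 1326 and 3275 CPM in cluster 23 and 72.0 and 324 CPM in the other excitatory nuclei. Summed together, those 10 nuclei thus lay between cluster 23 and the other excitatory nuclei for both genes. The same held for their Gpc3, with 68.5 CPM from 11 UMIs against 315 CPM in cluster 23 and 19.0 CPM in the other excitatory nuclei. Their Zeb2, with 106 CPM from 17 UMIs, was above the 11.5 CPM of cluster 23. Meis2 and Atrnl1 did not lie between, with 2073 and 2963 CPM in the 10 nuclei and 1963 and 2810 CPM in cluster 23.

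Ebf1 (11:44617317-45008091, plus strand) encodes a helix-loop-helix factor of the early B-cell factor family, which is widely used in neuronal differentiation. It stood at 41.3 CPM (E19), 17.2 (P4), 12.1 (P8) and 4.08 (P21) in EN12, against 901, 784, 1013 and 688 CPM in the other excitatory nuclei. The EN12 values rested on 8, 9, 12 and 5 UMIs. EN2 had the lowest Ebf1 of the remaining subtypes with at least 20 nuclei in every library, with 89.97 to 276 CPM, so EN12 lay below all of these. The 1 nucleus of EN7 at P8 had no UMI of Ebf1. Ebf3 (7:137193673-137314445, minus strand) stood at 10.3 CPM (E19), 9.56 (P4), 4.03 (P8) and 2.45 (P21), against 530.4, 279, 417 and 189 CPM, and Ebf2 (14:67233292-67430918, plus strand) at 0 CPM (E19), 1.91 (P4), 7.05 (P8) and 1.63 (P21), against 339.7, 193, 291 and 128 CPM. The 0 of Ebf2 at E19 allows up to 15.5 CPM (3 counts), so that Ebf2 was at least 21.9-fold lower in EN12 than in the other excitatory nuclei there. Low Ebf2 and Ebf3 also occurred elsewhere: EN7 held 6.43 and 19.3 CPM at E19. At P4 it held 5.40 and 2.52 CPM, and its Ebf3 was there below that of EN12. EN3 held 49.5 CPM (E19), 15.5 (P4), 4.38 (P8) and 1.95 (P21) of Ebf2, and was below EN12 at P8. EN2 held 14.7 to 29.7 CPM of Ebf2 in the 4 libraries, and its Ebf3 was 124 CPM (E19), 47.4 (P4), 14.7 (P8) and 16.2 (P21). Bnc2, which encodes a zinc finger protein, had 0, 3, 3 and 17 UMIs in EN12 in the order of the stages, or at most 13.9 CPM, against 209 to 329 CPM in the other excitatory nuclei. Zeb2 and Foxp2, both transcription factor genes, stood at 3.83 to 24.2 CPM and 8.16 to 26.8 CPM in EN12, against 139 to 359 CPM and 153 to 512 CPM. EN2 was low in Bnc2 and Zeb2 too, with 8.10 to 20.7 CPM and 17.4 to 29.8 CPM, so that EN12 and EN2 lay close together for both genes. Further subtypes were low as well: EN6 held 9.91 to 23.9 CPM of Zeb2, and EN13 8.70 CPM (P8) and 3.48 CPM (P21) of Bnc2. Foxp2 stood at 23.8 CPM (P8) and 14.2 CPM (P21) in EN5 and at 25.4 and 14.9 CPM in EN8. EN12 held 20.1 and 8.16 CPM of it in these libraries. Kcnab1, which encodes an auxiliary subunit of potassium channels, stood at 5.16 CPM (E19), 11.5 (P4), 13.1 (P8) and 13.1 (P21) against 111.7, 156, 203 and 263 CPM, and Tmtc2 had a log2 ratio of -2.97 or lower in every library. The E19 value of Kcnab1 was 1 UMI, and EN6 held 9.91 CPM of this gene there. EN13 held 12.7 CPM (E19), 16.2 (P4) and 37.7 (P8) of it, but 117 CPM at P21.

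By expression over all genes with at least 50 CPM in any excitatory subtype, EN2 was the subtype most like EN12 in each library. The Pearson correlation of log2(CPM + 5) between EN12 and EN2 was 0.864 (E19), 0.904 (P4), 0.8896 (P8) and 0.876 (P21), over 4814 to 5729 genes that share the same nuclei and depth and are no independent replicates. EN1 and EN3 followed in every library with 0.847 to 0.888. The median correlation of EN12 with the other subtypes was 0.809, 0.843, 0.834 and 0.828 in the order of the stages. At P8 and P21 it was the lowest of the 11 subtypes compared, and at E19 and P4 EN6 was the lowest of 13.

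Set against EN2 alone (474 nuclei), a comparison added after the data were seen, 62 of 3090 genes (2.01%) were at least 2-fold higher in EN12 in all 4 libraries and 53 (1.72%) at least 2-fold lower. Of the 15 highest genes, 13 were among those higher than in EN2, and the exceptions were Meis2 and G630016G05Rik. Gpc3 had 242 to 320.0 CPM in EN12 and 8.04 to 18.7 CPM in EN2, and Kcnd3 2125 to 3648 CPM and 249.7 to 630.0 CPM. Both genes thus set EN12 apart from its most similar subtype in each library. Lhfp, a tetraspan membrane protein gene that the naming rule did not pick, stood at 511 to 665 CPM in EN12 and 51.5 to 104.3 CPM in EN2. In the other direction the lncRNA gene Gm32647 stood at 25.2 to 37.6 CPM against 346 to 563 CPM, and the cadherin genes Cdh9 and Cdh10 at 5.03 to 31.0 and 38.3 to 82.5 CPM against 142 to 229 and 399 to 454 CPM. These 4 genes were likewise picked for their values.

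The gene lists were read at a lower minimum, 20 CPM on the higher side over all libraries together, where 69 of 7143 genes (0.966%) were 2-fold higher in EN12 in all 4 libraries and 153 (2.14%) 2-fold lower. The median log2 ratio of all these genes, averaged over the libraries, was -0.14. With genes at 0 UMIs set to their bound (3 counts), no list median in the text moved by more than 0.03 between nuclei or 0.08 between stages. Of 65 transcription factor genes, 4 were higher (Meis2, Rora, Bcl11b and Zeb1) and 19 lower, among them the 3 Ebf genes, Tfap2b, Tfap2d, Rorb, Nr2f2, Foxp1, Foxp2, Nfib, Maf and Cux2. Their median log2 ratio was -0.55. Rora (9:68653786-69388246, plus strand), which encodes a nuclear receptor, stood at 8532 CPM (E19), 10326 (P4), 10928 (P8) and 7403 (P21) in EN12, and at 1833, 1505, 2418 and 2914 CPM in the other excitatory nuclei. EN12 was highest in each library and the next subtype, EN4 or EN2, had 2887 to 3849 CPM. Bcl11b, which encodes the zinc finger factor Ctip2, stood at 1274 CPM (E19), 777 (P4), 699 (P8) and 362 (P21), against 193, 109.7, 179.9 and 104 CPM. Both were found in 100% of EN12 nuclei at full depth. Thinned to 3000 UMIs, Bcl11b was found in 79.1% of EN12, 31.1% of other excitatory and 8.27% of oligodendrocyte lineage nuclei.

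Of 68 ion channel genes, 5 were higher (among them Cacna1d, Cacna2d3, Kcnd3 and Trpc5) and 3 lower (Kcnab1, Kcnj3 and Kcnmb2), with a median of -0.09, or 0.0077 at a minimum of 50 CPM. Kcnmb2, an auxiliary subunit of calcium-activated potassium channels, stood at 92.9 CPM (E19), 34.4 (P4), 36.2 (P8) and 12.2 (P21) against 296, 199.8, 173 and 118 CPM. Of 22 glutamate receptor genes, Grik1 and Grm8 were higher and Grin3a and Gria4 lower, and the median was -0.23. Grik1, which encodes the kainate receptor subunit GluK1, stood at 2079 CPM (E19), 1907 (P4), 2321 (P8) and 2252 (P21) in EN12, against 698, 893, 654 and 327 CPM. At P21 EN13 came next with 998 CPM, whereas at P8 EN8 had 1982 CPM, close to EN12. Grm8, which encodes the presynaptic metabotropic receptor mGluR8, stood at 2007 CPM (E19), 1913 (P4), 1962 (P8) and 1520.0 (P21), against 549.6, 716, 705 and 532 CPM. Gria4, a subunit of AMPA receptors, stood at 609 CPM (E19), 570.0 (P4), 579 (P8) and 448 (P21), against 1302, 1504, 1679 and 1743 CPM. EN12 thus held more Grik1 and Grm8 and less Gria4 than the pooled other nuclei in every library.

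Of 35 inhibitory and modulatory receptor genes none was higher in all libraries and 7 were lower (among them Gabrg1, Gabrg3, Glra1, Glra2, Htr2c and Npsr1), with a median of -0.40. Gabrg3, which encodes the gamma 3 subunit of GABA-A receptors, stood at 175 CPM (E19), 132 (P4), 81.5 (P8) and 56.3 (P21) in EN12 and at 817, 1029.5, 1182 and 1086 CPM in the other excitatory nuclei. The serotonin receptor gene Htr2c stood at 10.3 CPM (E19), 11.5 (P4), 27.2 (P8) and 23.7 (P21), against 73.3, 160.1, 139 and 391 CPM. Both were lower in EN12 in every library, Gabrg3 by the more at each later stage. Tacr1, the substance P receptor gene, had the highest ratio of the list over all libraries (log2 1.45), yet at E19 its 5 UMIs gave 25.8 CPM against 38.1 CPM in the others. Of 13 peptide and calcium-binding genes only Necab1 was higher in all 4, at 222 CPM (E19), 251 (P4), 368 (P8) and 407 (P21) against 72.8, 107, 102 and 94.2 CPM, and none was lower.

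Of 64 axon guidance genes 1 was higher, Sema3e, a secreted semaphorin, and 7 were lower (Epha6, Epha7, Plxna2, Plxna4, Dcc, Unc5d and Cntn3), with a median of -0.07. Sema3e stood at 98.01 CPM (E19), 163 (P4), 84.6 (P8) and 110.2 (P21), against 30.2, 28.7, 29.5 and 26.01 CPM. Dcc, the netrin receptor gene, stood at 676 CPM (E19), 333 (P4), 239.6 (P8) and 415 (P21), against 1683, 1570.4, 1760.5 and 1734 CPM. Robo2, a Slit receptor gene, stood at 3977 CPM (E19), 2596 (P4), 2391 (P8) and 2434 (P21) in EN12 and 1212, 967, 1377 and 971 CPM in the others, and missed the count because of P8. Of 96 adhesion and synapse organiser genes, Cdh13 and Kirrel3 were higher and 13 were lower, among them Cdh9, Cdh10, Cdh11, Cdh18, Sdk1, Dscam and Mdga1, and the median was -0.32. Kirrel3, an immunoglobulin superfamily adhesion gene, stood at 5529.9 CPM (E19), 4138 (P4), 4023 (P8) and 2851 (P21), against 2016, 1772, 1452 and 1214 CPM. Sdk1, known from laminar synapse matching in the retina, stood at 77.4 CPM (E19), 119 (P4), 80.5 (P8) and 20.4 (P21), against 599, 506, 444 and 255 CPM. Neither the 23 immature neuron genes nor the 4 activity-induced genes had a member 2-fold apart in all 4 libraries, and of 32 mature neuron genes 1 was higher and none lower.

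Within EN12 the libraries were furthest apart at the first and last step, and the steps span unequal numbers of days. Of 2062 genes with at least 100 CPM at the higher stage, 87 (4.22%) were at least 2-fold higher and 102 (4.95%) at least 2-fold lower at P4 than at E19. From P4 to P8 these were 10 (0.512%) and 26 (1.33%) of 1954 genes, and from P8 to P21 88 (4.39%) and 150 (7.48%) of 2006 genes. With nuclei thinned to 3000 UMIs the counts were 263 and 305, 98 and 107, and 172 and 306 for the 3 steps. The step from P4 to P8 again had the fewest. Thinning left the numbers of nuclei unequal, at 22, 36, 59 and 41 in the order of the stages, and thus also the sums. The part of the unequal sums in this order of the steps was not tested. Of the 10 genes higher from P4 to P8, 5 were shared with the thinned counts, and with 20 CPM added that step had 4 and 17 genes. Of all absolute log2 ratios, the 90th percentile was 0.97, 0.55 and 1.09 for the 3 steps. Over the same genes its median in the other subtypes with at least 20 nuclei at both stages was 0.79, 0.56 and 0.87. Their ranges were 0.44 to 0.98, 0.39 to 0.79 and 1.01 at most from 0.76. The middle step was thus the smallest by the median of the other subtypes too. Between E19 and P21, 267 (12.2%) were higher and 408 (18.6%) lower at P21 of 2190 genes, with a 90th percentile of 1.90. The same percentile in the 10 other subtypes with at least 20 nuclei at both stages ranged from 1.25 to 1.94 with a median of 1.57. EN12 held 22 nuclei at E19, and the part of counting noise in these percentiles was not tested.

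Of the ratios from E19 to P21, the lowest was that of Tubb2b, a tubulin gene of developing neurons. Tubb2b stood at 1047 CPM (E19), 316 (P4), 143 (P8) and 4.90 (P21) (log2 ratio -6.73), and Nnat, which encodes neuronatin, at 1264 CPM (E19), 603 (P4), 299 (P8) and 12.2 (P21) (-6.20). Tubb5 and the thymosin genes Tmsb10 and Tmsb4x were also among the 6 lowest, with log2 ratios of -6.16, -5.03 and -4.84. The UMIs of Igfbpl1 numbered 26 at E19 against 0 at P21, which is at least 54.8-fold lower. The other excitatory subtypes had mean ratios of the same sign for all of these, for instance -6.29 for Tubb2b. Rasgrf1, which encodes an exchange factor for Ras that is responsive to calcium, went without a UMI at E19 and had 266 at P21, which is at least 14.03-fold higher. Aifm3 and Map7 also had 0 UMIs at E19 and were at least 7.75-fold and 7.28-fold higher at P21. Dlc1, which encodes a GTPase-activating protein, had 1 UMI at E19 against 265 at P21, a ratio of 41.9 with a 95% counting interval of 7.46 to 1663. The lncRNA gene Lncpint stood at 36.1 CPM (E19), 124 (P4), 157 (P8) and 744 (P21), and thus had its highest level at P21.

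The leaders of the single steps overlapped in part with these. From E19 to P4 the largest ratios upward were those of Pcsk5, Gm28928, Gpc5 and Gpc6, and downward those of Igfbpl1, Cd24a, Adamts19 and Arxes1. Pcsk5 and Gpc5 stood at only 10.3 and 20.6 CPM at E19, where 1 UMI stood for 5.16 CPM, and at 174 and 172 CPM at P4. Their ratios thus rested on few UMIs at E19. Gpc6, a glypican gene like Gpc3, stood at 72.2 CPM (E19), 494 (P4), 458 (P8) and 438 (P21) in EN12 against 971, 1045, 880.0 and 912 CPM in the others, so that EN12 was lower in every library and furthest from the others at E19. From P4 to P8 the leaders were Lgr5, Fstl4, Il1rap and Abhd18 upward and Elavl2, Pde1c, Bsg and Cdh7 downward. The log2 ratio of Cdh7, -1.30, was -0.42 with nuclei thinned to 3000 UMIs. Elavl2, which encodes a neuronal RNA-binding protein, stood at 206 CPM (E19), 218 (P4), 56.4 (P8) and 41.6 (P21), whereas the others held 329, 338, 236 and 251 CPM. From P8 to P21 they included Gm13629, Chst9 and Specc1 upward and Nnat, Tubb5, Tubb2b and Stk32b downward. Chst9, which encodes a sulfotransferase, stood at 10.3 CPM (E19), 11.5 (P4), 9.06 (P8) and 109 (P21) in EN12, against 14.8, 21.2, 18.9 and 30.2 CPM, so that EN12 was above the others at P21 alone.

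**Figure D3:**
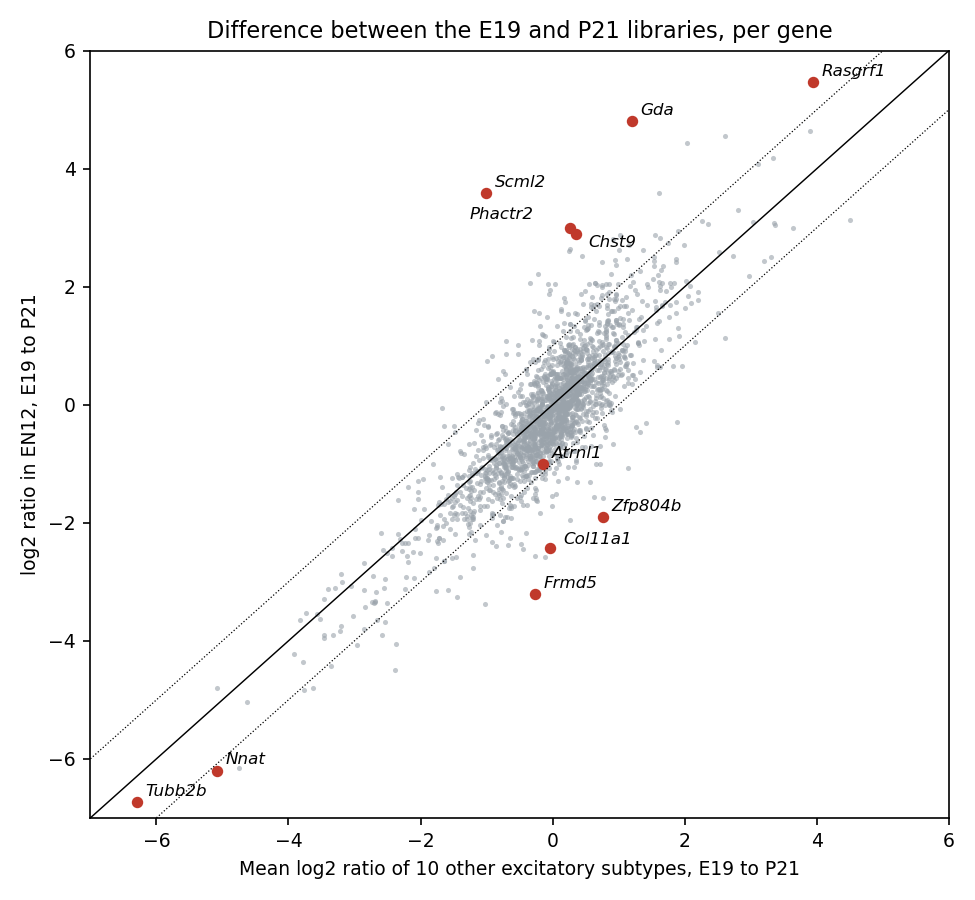
log2 ratio between the P21 and E19 libraries in EN12 (vertical) against the mean of the same ratio in 10 other excitatory subtypes (horizontal), 1 point per gene with at least 100 CPM at the higher stage in EN12. The solid line marks equality and dotted lines a difference of 1, and red points are named genes: Scml2 lies at 3.59 against -1.01, and Frmd5 at -3.20 against -0.26.

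The ratio of EN12 was then set beside the mean ratio of the 10 other subtypes, each weighted alike. It lay at least 1 log2 unit above theirs for 98 of 2190 genes (4.47%) and at least 1 below for 121 (5.53%). The largest difference was that of Scml2, which encodes a Polycomb group protein. Scml2 stood at 10.3 CPM (E19), 45.9 (P4), 73.5 (P8) and 179.6 (P21) in EN12 (2, 24, 73 and 220 UMIs) and at 15.4, 14.8, 15.6 and 6.801 CPM in the other excitatory nuclei. Its ratio from E19 to P21 was 17.4 in EN12 (95% counting interval 4.76 to 145), and the log2 ratios of the 10 other subtypes ran from -2.54 to 0.31, all below the 3.59 of EN12. At P21 the next highest subtype was EN6 with 19.1 CPM. For Scml2, EN12 ranked 10th of 13 subtypes at E19, a rank that rested on 2 UMIs. At P21 it ranked 1st of the 11 subtypes with at least 20 nuclei. Gda, which encodes guanine deaminase, stood at 5.16 CPM (E19), 51.6 (P4), 94.6 (P8) and 280.0 (P21) in EN12 and at 8.64, 10.6, 28.1 and 28.2 CPM in the others. It rested on 1 UMI at E19 (ratio 54.3, interval 9.68 to 2150.1) and EN9 held more of it than EN12 at P4 and P8. Phactr2 and Chst9 followed with differences of 2.74 and 2.53, each from 2 UMIs at E19.

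The largest differences downward included those of Frmd5, Zfp804b and Col11a1. Frmd5, which encodes a FERM domain protein, stood at 387 CPM (E19), 197 (P4), 125 (P8) and 37.6 (P21) in EN12, lower at each later stage, while the other excitatory nuclei held 683, 682, 513 and 624 CPM. Zfp804b stood at 273 CPM (E19), 304 (P4), 235 (P8) and 69.4 (P21), against 584, 1068, 971 and 784 CPM. Col11a1, a fibrillar collagen gene, stood at 149.6 CPM (E19), 142 (P4), 135 (P8) and 23.7 (P21) in EN12, against 71.4, 83.3, 90.3 and 70.5 CPM. It was thus above the other excitatory nuclei at E19, P4 and P8 and below them at P21. In single other subtypes its log2 ratio from E19 to P21 ran from -1.94 to 1.81, against -2.43 in EN12. No gene was at least 2-fold apart between E19 and P21 in EN12 with a ratio of the opposite sign in all 10 subtypes.

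**Figure D4:**
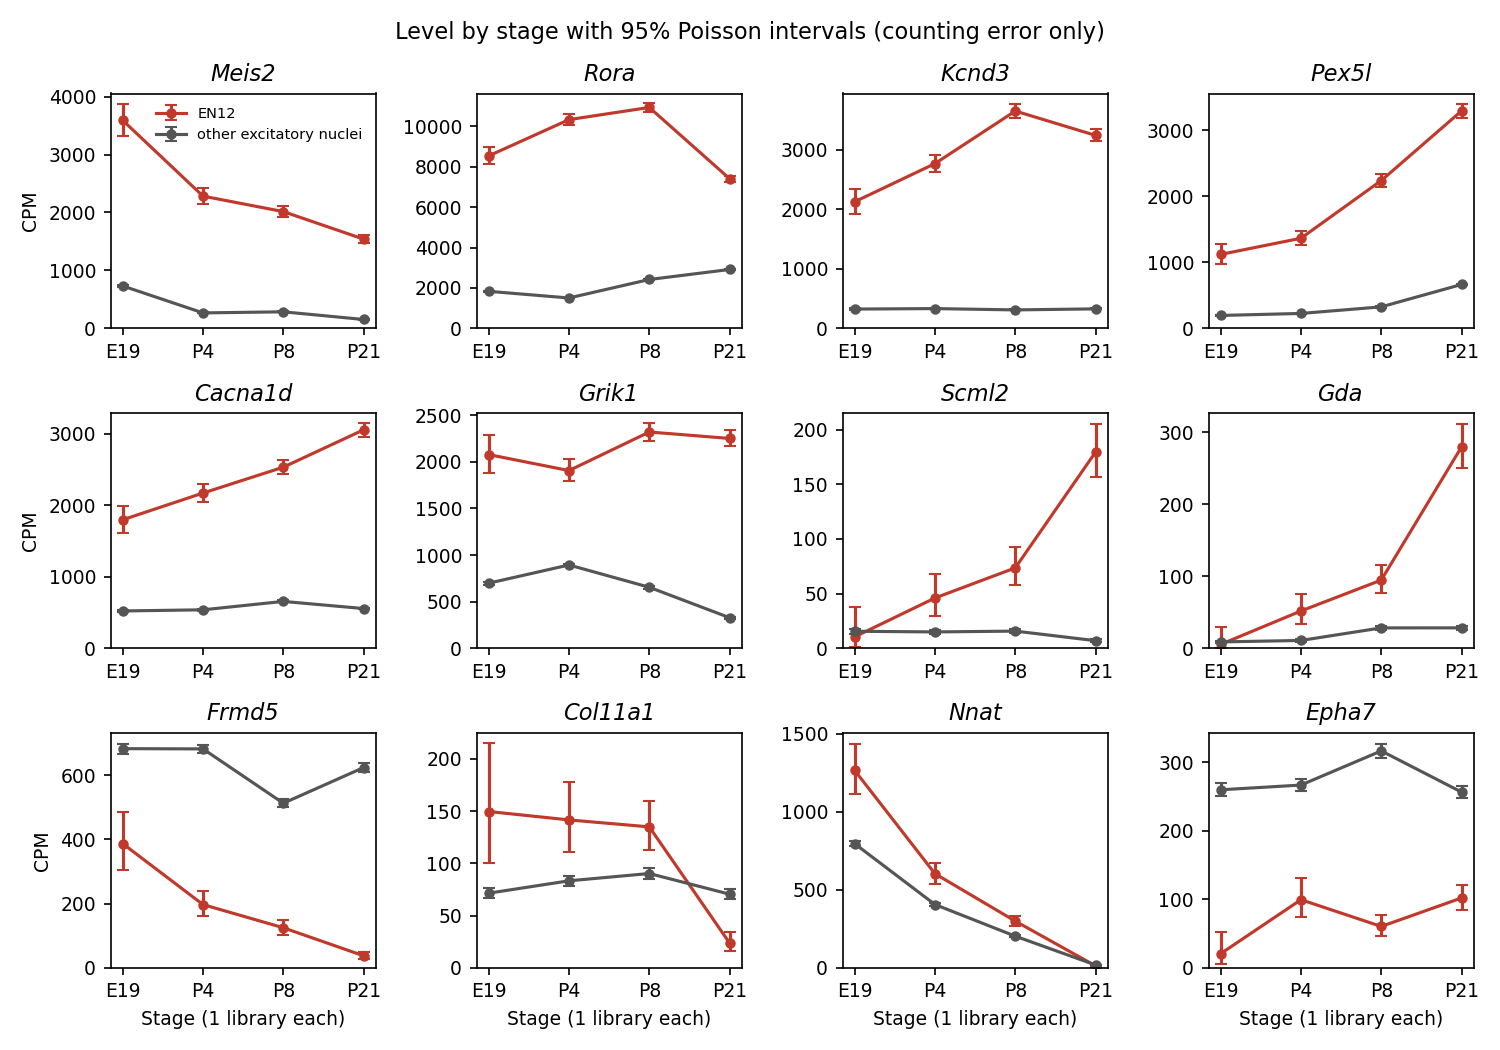
Level (CPM, linear axes from 0) of 12 genes named in the text in the 4 libraries. EN12 is red and the sum of the other excitatory nuclei grey, with 95% Poisson intervals for counting error. Scml2 and Gda reach 180 and 280 CPM in EN12 at P21, where the others hold 6.801 and 28.2 CPM, and Frmd5 reaches 37.6 CPM against 624 CPM.

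By list, and among 7748 genes with at least 20 CPM at the higher stage, 843 (10.9%) were 2-fold higher and 1712 (22.1%) 2-fold lower at P21 than at E19 in EN12, with a median log2 ratio of -0.25. For the same genes the median of the mean ratio over the 10 other subtypes was -0.03. Over these genes EN12 thus already had the lower median, against which the list medians are to be read. The genes were admitted by their level in EN12, where 1 UMI stood for 5.16 CPM at E19. Genes high at E19 by counting error could thus enter and be lower at P21 in EN12 alone. Their part in the medians of EN12 and in its counts was not tested. At a minimum of 100 CPM the median of EN12 was -0.14. All 24 immature neuron and growth cone genes were lower at P21, with a median of -2.82, and the median for them of the mean ratio over the 10 other subtypes, used for the others here and below, was -3.03. Sox4 and Sox11, transcription factor genes of immature neurons, stood at 139 CPM (E19), 47.8 (P4), 51.3 (P8) and 14.7 (P21), and at 232 CPM (E19), 97.6 (P4), 117 (P8) and 31.8 (P21). Of 32 mature neuron genes 14 were higher, among them Camk2a, Grin1, Snap25, Syt2 and Kcna2, and 2 were lower, Nefl and Map1b. Camk2a, which encodes a calcium-dependent kinase of synapses, stood at 149.6 CPM (E19), 179.8 (P4), 292 (P8) and 493 (P21) in EN12 and at 103, 130.2, 169 and 302 CPM in the other excitatory nuclei. The median of the mature list was 0.96 in EN12 and 1.05 in the others. Both lists thus had medians of the same sign and similar size in EN12 and the other subtypes.

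Of 70 ion channel genes 22 were higher at P21 and 9 lower, with a median of 0.41 in EN12 and 0.19 in the others. Those higher included Scn1a, Kcna1, Kcna2, Kcnc2, Kcnip2, Kcnip4 and the T-type calcium channel gene Cacna1i, with 0 UMIs at E19 against 107 at P21, which is at least 5.64-fold higher. Those lower included Hcn3, Hcn4, Kcnip1, Scn3b and Kcnh8, which stood at 237 CPM (E19), 172 (P4), 90.6 (P8) and 5.71 (P21). Of 22 glutamate receptor genes 5 were higher (among them Grin1, Gria3, Grm4 and Grm5) and none lower. Gria3, another AMPA receptor subunit gene, stood at 56.7 CPM (E19), 195 (P4), 182 (P8) and 251 (P21). Of 33 inhibitory and modulatory receptor genes 6 were higher (Gabra4, Gabrb1, Glrb, Chrna7, Htr1d and Tacr1) and 9 lower. The list's median was -0.13 in EN12 and 0.12 in the others, beside -0.25 and -0.03 over all genes. Tacr1 stood at 25.8 CPM (E19), 139.6 (P4), 138 (P8) and 187 (P21), with its highest value at P21, and Cnr1, the cannabinoid receptor gene, at 175 CPM (E19), 91.8 (P4), 66.4 (P8) and 39.2 (P21), with its highest value at E19.

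Of 67 axon guidance genes 29 were lower at P21 and 4 higher (Epha7, Ntn4, Cntn4 and Cntn6). Those lower included ephrins (Efna2, Efna3, Efnb1, Efnb3), Eph receptors (Epha8, Ephb1, Ephb2, Ephb6), semaphorins (Sema3c, Sema6a, Sema6c, Sema6d), Slit2, Nrp1 and L1cam. The list's median was -0.86 in EN12 and -0.43 in the others. Draxin, a secreted guidance protein gene, had 20 UMIs at E19 against 0 at P21, which is at least 42.1-fold lower. Epha7 stood at 20.6 CPM (E19), 99.5 (P4), 60.4 (P8) and 102 (P21) in EN12 and thus above its E19 level at every later stage, yet below the 259.9, 267, 317 and 257 CPM of the others in each library. Of 60 transcription factor genes 27 were lower and 8 higher, the latter including Thrb, the thyroid hormone receptor gene, with 0, 4, 41 and 92 UMIs in the order of the stages. Meis2 and Bcl11b were among those lower, whereas Rora differed by only -0.20 in log2 between E19 and P21. Of 93 adhesion and synapse organiser genes 12 were higher and 15 lower. Of 11 peptide and calcium-binding genes Calb1 and Nos1 were higher and Sst, Tac1 and Reln lower, and Reln, which encodes a secreted matrix protein, stood at 691 CPM (E19), 365 (P4), 361 (P8) and 326 (P21). Of the 4 activity-induced genes Nr4a1 and Bdnf were higher and Npas4 lower, all at under 50 CPM in each library.

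**Figure D5:**
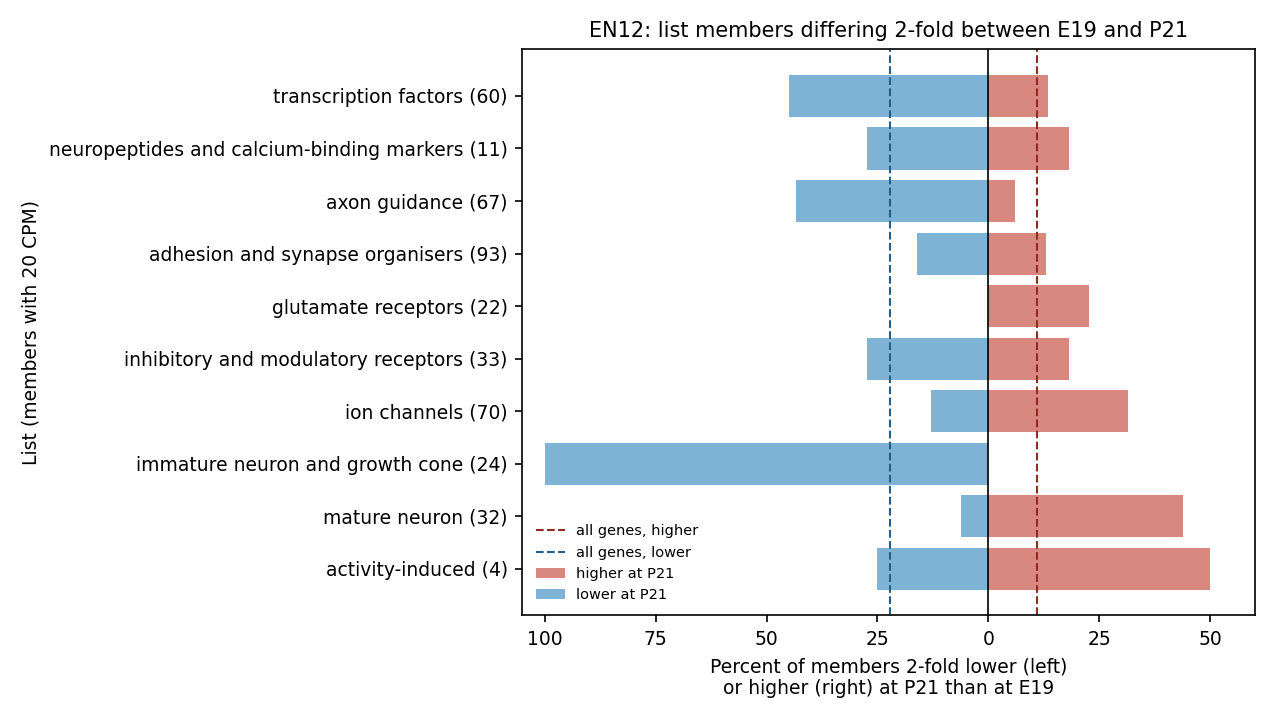
Percent of the members of each gene list that were at least 2-fold lower (bars to the left) or higher (bars to the right) at P21 than at E19 in EN12, with the number of members at 20 CPM or more in brackets. Dashed lines give the same share over all 7748 genes, 22.1% lower and 10.9% higher. All 24 immature neuron genes were lower, and 14 of 32 mature neuron genes were higher.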

How the data were processed

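Superior colliculus nuclei of 4 stages were measured, 1 library each, with the 10x Genomics 3' v3 assay and a target of 2000 nuclei per sample, per the labels. The deposited matrix holds UMI counts, not normalised, for 31053 genes and 9724 nuclei, which the authors made with Cell Ranger 3.0.2 on mm10, per the submitters' processing notes. The deposited table of nuclei gives stage, class, subtype, cluster, 2 sets of reference labels, and the percent of mitochondrial and of ribosomal protein UMIs, as the authors computed them. The mitochondrial percent did not pass 5 in any nucleus. A further 4 value columns were not used, and how nuclei were filtered, doublets treated and clusters named is not stated in the sources used here. Integration of the libraries before clustering can pull stages together and bears on which nuclei are called EN12.

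Stages and subtypes were taken from the deposited table, with no further filter on nuclei. UMI counts were summed per library and subtype and scaled to CPM, with Python 3.11.15, numpy 2.4.6, scipy 1.17.1 and pandas 2.3.3. Ratios are log2 with 5 CPM added. Intervals are exact Poisson or Clopper-Pearson at 95%, for counting error only; UMIs of 1 nucleus are not independent samples of a stage. A count of 0 allows 3 counts. The scripts were tested on simulated counts. GENCODE M21 (GRCm38) held 31011 of the 31053 gene identifiers (99.9%); the release behind the deposited identifiers is not stated. Promoters are RefSeq's.

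The subtype, the gene lists and the markers were chosen with earlier results of these data known. Named genes were (rankings left out genes of mitochondria, ribosomal proteins, haemoglobins, Xist, Tsix and Y-linked genes): the 15 highest and 8 lowest weakest ratios to the other excitatory nuclei at 50 CPM; per step the 4, and over the whole span the 6, largest ratios each way at 100 CPM; the 4 largest differences from other subtypes each way; per list the 3 highest and 2 lowest ratios and the 2 largest stage ratios each way; and all markers. This gave 196 genes, not all of which are described; some items picked by the rule are not reported here. Lhfp, Gm32647, Cdh9 and Cdh10 in the comparison with EN2, and list members named in counts, fall outside the rule. Of the 196, 10 overlap another gene on the same strand and 64 one on the opposite strand. Alternatives covered the pseudocount, the CPM minimum, weighting of nuclei and subtypes, thinning, scaling, the nucleus with most UMIs of a gene and the comparison nuclei.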

Additional observations from a re-analysis of the deposited data

How the results depend on the processing

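No paired analysis was possible because the results come from no test: each stage has 1 library and the labels carry no replicate number. EN12 and the other excitatory nuclei share the 4 libraries and were compared within each, with no test, since the subtypes were defined on these nuclei. The 59 genes higher and 94 lower in EN12 than in other excitatory nuclei stayed within 1.5 times under all alternatives, from 51 to 70 and from 82 to 129. These ranges include 2 alternatives added after seeing the data: 61 and 95 with cluster 23 alone, and 70 for the higher genes without the E19 library. Of 417 alternative values of single genes, 416 kept their sign and stayed at 2-fold or more. The exception was Cdh7 from P4 to P8, with a log2 ratio of -1.30 that was -0.42 after thinning.

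Stage counts depended on the depth. With a minimum of 50 CPM, 238 genes were higher and 265 lower from E19 to P4, 30 and 63 between P4 and P8, 145 and 313 between P8 and P21, and 462 and 873 from E19 to P21. That minimum admits more genes by construction. After thinning to 3000 UMIs the counts were 263 and 305, 98 and 107, and 172 and 306 for the 3 consecutive steps; of the 10 higher from P4 to P8, 5 were shared. With 20 CPM added, 4 and 17 remained from P4 to P8. Genes whose ratio lay above or below that of other subtypes numbered 215 and 384 after thinning, and 74 lay below with 20 CPM added.

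At a minimum of 50 CPM the list medians against other excitatory nuclei were 0.97 for peptides and calcium-binding genes, -0.16 for inhibitory and modulatory receptors, 0.0077 for ion channels and 0.29 for activity-induced genes, on the other side of 0 in all but the second, with fewer genes tested. The median correlation with other subtypes was 0.839, 0.864, 0.855 and 0.852 in the order of the stages with 20 CPM added, and 0.770, 0.7998, 0.779 and 0.770 with a minimum of 100 CPM; the cause of these shifts was not tested. The E19 library, with 22 nuclei and 5.16 CPM per UMI, limits every comparison that uses it.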
